A study of Mus musculus with 6 samples.

Results

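Sarcomeric myosin heavy chains are the motor proteins of the thick filament of striated muscle. The family was taken as the 8 genes Myh1, Myh2, Myh3, Myh4, Myh6, Myh7, Myh7b and Myh8, found by exact symbol in each of the 6 gene tables, and all 8 were present among the 19458 genes listed. RNA was sequenced from the gastrocnemius, a calf muscle, of C57BL/6 mice aged 9 weeks. There were 3 libraries from tmem182-/- mice and 3 from wild-type mice, which sets muscle lacking Tmem182, a membrane protein gene, beside intact muscle. The labels name no promoter, Cre driver or allele for the knockout, no agent and no treatment, and leave unsaid whether the libraries stem from different mice; p-values thus measure the spread between these samples, and part of that may be technical. The source labels of knockout libraries 2 and 3 name tmem183-/- and tmem184-/-, while the genotype field gives tmem182-/- for all 3 knockout libraries. The extraction text speaks of myoblasts and myotubes, whereas the tissue label gives skeletal muscle.

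Tmem182 was at 6.23, 4.30 and 2.17 FPKM (fragment counts scaled to transcript length and library total) in knockout libraries 1, 2 and 3, against 147.48, 121.39 and 120.97 FPKM in wild-type libraries 1, 2 and 3, so the knockout libraries were low in the targeted gene. Total expected counts ran from 16212341 to 18672630 per library. The tables held high levels of the defining genes of skeletal muscle: all 7 skeletal muscle markers (Acta1, Ckm, Des, Ttn, Ryr1, Cacna1s and Mb) were tested, with summed levels of 46024 to 53862 FPKM in knockout libraries and 50706 to 57676 FPKM in the wild-type ones. Knockout library 1 stood apart from the other 5. Its 10 most abundant genes took 22.0% of the counts, against 28.2% to 31.9% elsewhere, and its TMM scaling factor was 1.19, against 0.933 to 1.04. The members' fold changes, spread, shares of the adult chains and ratios, and the fold changes of other named genes where they move most, are therefore also given without it.

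Each muscle fibre is typed by the heavy chain it makes. Myh7 encodes the slow chain of type I fibres, Myh2 the chain of type IIA fibres, Myh1 that of type IIX fibres and Myh4 that of type IIB fibres, in order of rising shortening speed. Myh3 and Myh8 encode the embryonic and perinatal chains, which precede the adult chains in development and return in regenerating fibres. Myh6 encodes the alpha chain of cardiac muscle. Myh7b encodes an ancient slow-type chain whose gene hosts a microRNA gene. Mouse gastrocnemius is known as a mainly fast muscle, with oxidative and slow fibres gathered in its deep part.

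The genes sit in 3 places on GRCm38 (GENCODE M21). Myh3, Myh2, Myh1, Myh4 and Myh8 lie in that order on the plus strand of chromosome 11, at 67078300 to 67102291, 67171027 to 67197517, 67200052 to 67224575, 67238029 to 67260446 and 67277124 to 67308634. Myh6 (54941921 to 54966927) and Myh7 (54970684 to 54994626) are neighbours on the minus strand of chromosome 14, and Myh7b lies alone on the plus strand of chromosome 2 (155611212 to 155634307). The promoter windows shown are those of the 4 chains that carried nearly all of the family's transcripts. Each window spans 250 bases before and 50 bases after the RefSeq start (GRCm38.p6), read 5′ to 3′ on the gene's strand, at chr11:67237562-67237861 for Myh4, chr11:67199852-67200151 for Myh1, chr11:67170777-67171076 for Myh2 (all plus strand) and chr14:54994577-54994876 for Myh7 (minus strand). Capitals mark TATAAA on either strand and the longest run of bases common to the Myh1, Myh2 and Myh4 windows.
Myh4: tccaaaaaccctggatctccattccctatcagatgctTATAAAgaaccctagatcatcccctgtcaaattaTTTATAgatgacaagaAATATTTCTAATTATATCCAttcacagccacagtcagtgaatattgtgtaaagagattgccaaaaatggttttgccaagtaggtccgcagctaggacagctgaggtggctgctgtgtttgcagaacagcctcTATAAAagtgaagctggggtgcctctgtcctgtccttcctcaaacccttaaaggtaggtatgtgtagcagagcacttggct
Myh1: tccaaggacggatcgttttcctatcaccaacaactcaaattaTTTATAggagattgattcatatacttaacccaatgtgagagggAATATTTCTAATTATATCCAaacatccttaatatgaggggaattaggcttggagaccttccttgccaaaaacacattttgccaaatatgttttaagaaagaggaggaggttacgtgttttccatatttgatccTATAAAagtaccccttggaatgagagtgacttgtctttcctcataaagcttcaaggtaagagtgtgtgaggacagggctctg
Myh2: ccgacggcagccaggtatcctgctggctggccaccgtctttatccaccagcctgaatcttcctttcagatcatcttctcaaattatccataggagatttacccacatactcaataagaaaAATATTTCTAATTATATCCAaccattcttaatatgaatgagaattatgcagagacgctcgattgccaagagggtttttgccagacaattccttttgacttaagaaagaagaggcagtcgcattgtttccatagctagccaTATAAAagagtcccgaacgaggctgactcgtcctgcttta
Myh7: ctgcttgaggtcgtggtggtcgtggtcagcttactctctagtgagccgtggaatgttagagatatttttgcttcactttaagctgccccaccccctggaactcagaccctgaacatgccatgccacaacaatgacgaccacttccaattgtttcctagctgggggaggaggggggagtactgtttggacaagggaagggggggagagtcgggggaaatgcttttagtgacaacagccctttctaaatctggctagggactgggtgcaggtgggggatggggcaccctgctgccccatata

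The run common to the 3 fast adult chains is 20 bases long, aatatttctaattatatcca, and it starts 163, 165 and 130 bases before the RefSeq start of Myh4, Myh1 and Myh2. It was found, on either strand, in 3 of 32851 RefSeq promoter windows of the same length, which are the 3 windows it was taken from. TATAAA was present in 6 of the 8 family windows, all but those of Myh7 and Myh7b, and in 13.6% of all windows. Its match nearest the RefSeq start lay 31 and 32 bases before that start in Myh4 and Myh1, but 10 bases after it in Myh2. The distances given for the 20-base run thus depend on where the start is annotated. The E-box CANNTG, the general motif of myogenic basic helix-loop-helix factors, occurred 3 times in the Myh4 window and 2 times in that of Myh7, and was not found in those of Myh1 and Myh2. It was present in 72.3% of all windows. None of these matches overlapped one another in the 4 windows shown. A match describes the letters of the window and shows no binding.

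Near-identical coding sequence bears on how well reads could be assigned. Over aligned bases of the longest open reading frames, Myh1 was 91.1% identical to Myh2 and 90.2% to Myh4, Myh6 was 91.7% identical to Myh7, and Myh8 was 89.3% identical to Myh1. Myh7b stood furthest from the rest, at 69.4% to 72.4%. Of the distinct runs of 50 bases in annotated transcripts, 25.4% of those of Myh1, 22.9% of Myh2, 18.9% of Myh4, 20.2% of Myh6, 15.6% of Myh7, 11.1% of Myh8 and 4.76% of Myh3 also occurred in another member or in Myh13 or Myh15, and 0% of those of Myh7b. The deposited counts divide such reads by estimation. A low member beside an abundant near-copy, such as Myh6 beside Myh7 or Myh8 beside Myh1 and Myh2, is therefore less certain than its count alone would say. Antisense genes share exonic bases with Myh1 (Myhas, 8.11% of its exonic bases), Myh2 (9430073C21Rik, 3.32%) and Myh7 (Gm31251 with 6.07% and Mhrt with 5.62%), and whether counting used strand is not stated in any source read here.

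Myh4, the IIB chain, was the most abundant member and the most abundant gene by count in all 6 libraries. It was at 6876, 13689 and 14156 FPKM in knockout libraries 1, 2 and 3, against 11905, 11622 and 14396 FPKM in wild-type libraries 1, 2 and 3. Knockout library 1 was the lowest of the 6, and the other 2 knockout libraries lay inside the wild-type range. Means were 11574 ± 4075 FPKM in knockout muscle and 12641 ± 1526 FPKM in wild-type muscle (SD, n = 3 each), a difference smaller than the spread within the knockout.

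Myh1, the IIX chain, stood at 1739.23, 309.17 and 231.37 FPKM in knockout libraries, against 867.29, 75.69 and 667.61 FPKM in the wild-type libraries. Knockout library 1 was highest and wild-type library 2 lowest, but knockout libraries 2 and 3 lay below wild-type libraries 1 and 3, so the groups overlapped. Myh2, the IIA chain, stood at 1452.68, 375.74 and 162.86 FPKM in knockout muscle, against 439.78, 28.15 and 367.58 FPKM in wild-type muscle. Here too knockout library 1 was highest and wild-type library 2 lowest, and knockout library 3 lay below wild-type libraries 1 and 3. Within one group alone Myh1 spanned 7.52-fold in knockout muscle and 11.5-fold in wild type, and Myh2 spanned 8.92-fold in knockout muscle and 15.6-fold in wild type. The order of these chains was not fixed either: Myh1 lay above Myh2 in 5 libraries, by 1.20-fold and 1.42-fold in knockout libraries 1 and 3 and by 1.97-fold, 2.69-fold and 1.82-fold in the wild-type libraries, whereas in knockout library 2 their ratio was 0.823.

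Myh7, the slow chain, showed the widest range of the abundant members. Its values were 277.22, 196.42 and 1.34 FPKM in knockout libraries, from 27506, 21628 and 147 expected counts, against 76.52, 5.71 and 71.59 FPKM in the wild-type libraries, from 8252, 652 and 7934 expected counts. The highest and the lowest value of the 6 were both knockout libraries, 207-fold apart, and the wild-type libraries spanned 13.4-fold between them. Myh7b, the other slow-type chain, stood at 2.87, 1.48 and 0.06 FPKM in knockout muscle, against 1.01, 0.11 and 0.81 FPKM in wild-type muscle. It ordered the 6 libraries as Myh7 did, with knockout library 1 first, knockout library 2 second and knockout library 3 last, although its transcripts share no run of 50 bases with any other member.

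The developmental chains were close to the floor of the data. Myh3, the embryonic chain, stood at 2.98, 0.38 and 0.31 FPKM in knockout muscle, against 1.08, 0.19 and 0.71 FPKM in wild-type muscle. Myh8, the perinatal chain, stood at 2.64, 0.60 and 0.97 FPKM in knockout muscle, against 1.39, 0.59 and 0.99 FPKM in wild-type muscle. In both genes knockout library 1 alone exceeded the wild-type range. Among 7 markers of regenerating muscle, summed levels were 18.3 to 37.5 FPKM in knockout muscle and 19.6 to 26.3 FPKM in wild-type muscle. They were highest in knockout library 1, and Myod1 made up most of each sum. Myog was highest in wild-type library 1 (3.25 FPKM, against 2.27 FPKM in knockout library 1), and the other markers in knockout library 1. The fusion genes Mymk and Mymx stayed at or below 0.57 FPKM, and neither was at 0 in all libraries. The part of these markers in the Myh3 and Myh8 values was not tested.

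Myh6, the cardiac alpha chain, stood at 0.96, 0.22 and 0.01 FPKM in knockout libraries, from 95, 24 and 1 expected counts, against 0.25, 0.00 and 0.17 FPKM in the wild-type libraries, from 27, 0 and 19 expected counts. The count of 0 in wild-type library 2 allows a level of up to 0.161 CPM (counts scaled to the library total; 3 counts of that library's total, counting error only). Of 7 cardiomyocyte markers, Myl7 was at 0 in all 6 libraries and Nppa, Nppb, Tnni3 and Ryr2 stayed at or below 0.43 FPKM. Actc1 alone made up most of the summed level of that list, which ran from 323.5 to 701.8 FPKM in knockout muscle and from 302.4 to 2121 FPKM in wild-type muscle. Myh6 followed the order of Myh2 over the libraries, and was lowest in the same libraries as Myh7, knockout library 3 and wild-type library 2.

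**Figure D1:**
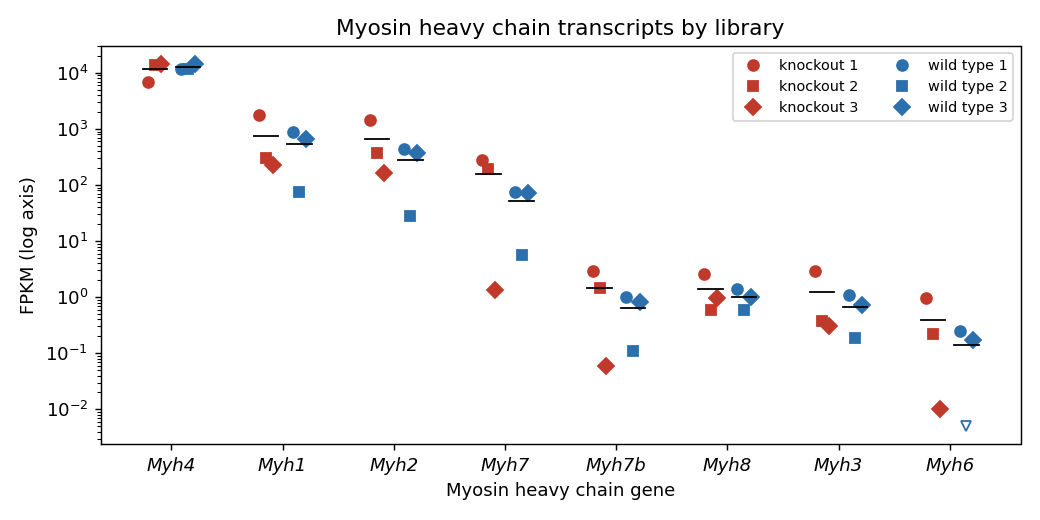
Level of each myosin heavy chain gene in FPKM (log axis) in the 3 knockout and the 3 wild-type libraries; each point is a library, short black lines are group means, and the open triangle at the bottom marks the library listed at 0 for Myh6. Myh4 lies between 6876 and 14396 FPKM, and the groups overlap for every gene.

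Isoform shares were computed per library as the FPKM of each chain over the summed FPKM of the 8. The summed level was 10354.9, 14573.3 and 14553.2 FPKM in knockout libraries, against 13292.6, 11732.2 and 15505.0 FPKM in the wild-type libraries. Group means of its log2 value differed by -0.05 (knockout minus wild type; two-sided exact permutation test, p = 0.8, where the smallest p that 3 against 3 libraries allow is 0.1). The lowest sum was that of knockout library 1, and the groups overlapped.

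The Myh4 share was 66.4%, 93.9% and 97.3% in knockout libraries 1, 2 and 3, against 89.6%, 99.1% and 92.8% in wild-type libraries 1, 2 and 3. Knockout library 1 had the lowest share and wild-type library 2 the highest, and the remaining 4 libraries lay between 89.6% and 97.3%. The means were 85.9% ± 16.9 in knockout muscle and 93.8% ± 4.82 in wild-type muscle (SD, n = 3 each), a difference of -7.95 percentage points (exact permutation p = 0.7). Without knockout library 1 the difference was 1.78 percentage points, with the knockout higher.

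Myh1 held 16.8%, 2.12% and 1.59% of the sum in the knockout, against 6.52%, 0.645% and 4.31% in wild type. Myh2 held 14.0%, 2.58% and 1.12% in the knockout, against 3.31%, 0.240% and 2.37% in wild type. Both chains together thus made up 30.8% of the sum in knockout library 1, 4.70% and 2.71% in the other knockout libraries, against 9.83%, 0.885% and 6.68% in the wild-type libraries. Means were 6.84% ± 8.63 in knockout muscle and 3.83% ± 2.97 in wild type for Myh1, and 5.91% ± 7.07 and 1.97% ± 1.57 in the same order for Myh2 (SD, n = 3 each; exact permutation p = 0.8 and 0.5). Without knockout library 1 the differences were -1.97 percentage points for Myh1 and -0.12 for Myh2.

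The slow chain was a small part of the family in every library. Myh7 held 2.68%, 1.35% and 0.00921% of the sum in the knockout, against 0.576%, 0.0487% and 0.462% in wild type. As shares of read counts the 2 lowest were 0.00925% in knockout library 3 (95% Wilson interval 0.00787% to 0.0109%) and 0.0487% in wild-type library 2 (0.0451% to 0.0526%), so these libraries differed from each other and from the rest by more than counting error, which is all that such intervals cover. Means were 1.34% ± 1.33 in knockout muscle and 0.362% ± 0.277 in wild-type muscle (SD, n = 3 each), a difference of 0.98 percentage points (exact permutation p = 0.4). Without knockout library 1 that difference was 0.316 and without knockout library 3 it was 1.65 percentage points.

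The 4 low members added little. Myh3, Myh6, Myh7b and Myh8 together held 0.0913%, 0.0184% and 0.00928% of the sum in the knockout libraries, against 0.0281%, 0.00759% and 0.0173% in the wild-type libraries. Their share was highest in knockout library 1 and lowest in wild-type library 2, as for Myh1 and Myh2. The exact permutation p of their separate shares ran from 0.5 to 0.8.

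**Figure D2:**
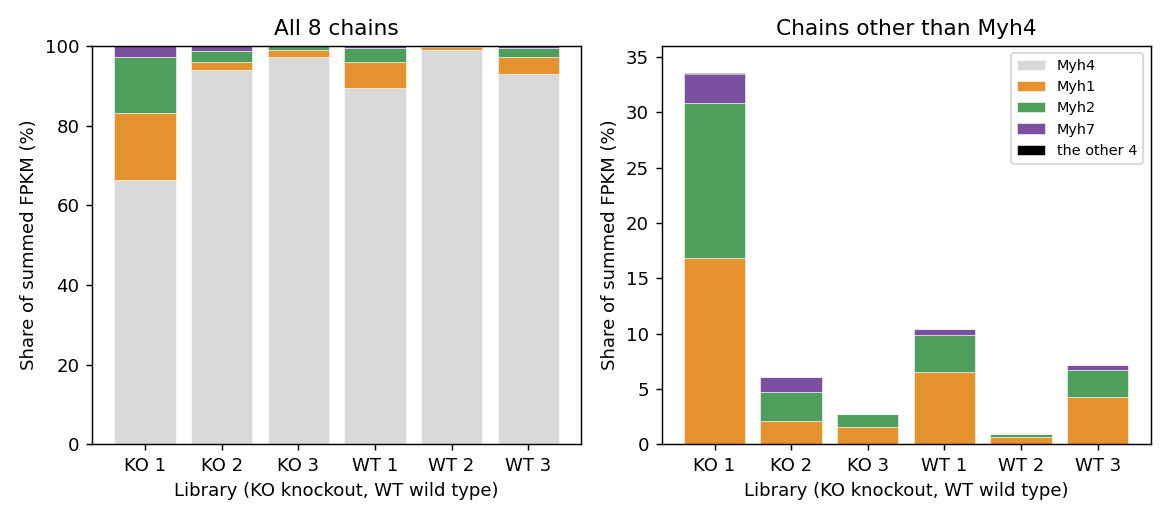
Share of the summed FPKM of the 8 myosin heavy chains held by each chain, in percent, for knockout libraries (KO) and wild-type libraries (WT); the left panel stacks all chains and the right panel leaves out Myh4 and uses a smaller axis. Chains other than Myh4 make up 33.6% in knockout library 1, 6.07% and 2.73% in the other knockout libraries, against 10.4%, 0.941% and 7.16% in the wild-type libraries.

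Ratios within a library do not depend on library scaling. The log2 ratio of Myh7 to Myh4 was -4.63, -6.12 and -13.37 in the knockout libraries, against -7.28, -10.99 and -7.65 in the wild-type libraries. The wild-type values lay inside the knockout range. Means differed by 0.60 (knockout minus wild type; SD 4.67 in knockout muscle and 2.04 in wild type, n = 3 each; exact permutation p = 0.8), and the difference was -1.10, -0.36 and -0.57 without knockout library 1, knockout library 2 and wild-type library 2. For Myh2 to Myh4 the ratio was -2.24, -5.19 and -6.44 in the knockout, against -4.76, -8.69 and -5.29 in wild type, a difference of 1.62 (exact permutation p = 0.5). Omitting knockout library 1 left a difference of 0.43, and omitting wild-type library 2 left 0.40. For Myh1, Myh3, Myh7b and Myh8 the differences were 0.70, 0.62, 0.69 and 0.50, with exact permutation p from 0.7 to 0.9, and without knockout library 1 they were -0.54, -0.76, -0.73 and -0.44. Without wild-type library 2 those of Myh1, Myh3 and Myh7b were -0.36, -0.06 and -0.26. On the sum, 8 shares and 6 ratios, 15 exact tests were run, and the lowest p was 0.4. A further exact permutation test, on the log2 summed FPKM of Myh3, Myh6, Myh7b and Myh8, gave p = 0.6. Myh6 was left out of the ratios because it is listed at 0 in one library.

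In the fit to counts over all genes, all 8 members passed the filter on low counts, and 0 of 8 passed edgeR's quasi-likelihood test at the adjusted threshold of 0.05, which 1 gene, Tmem182, or 0.00783% of 12774 genes, passed. None reached an unadjusted p of 0.05, against 3.55% of all genes, and DESeq2, which called 0.0343% of its genes, and limma called 0 of 8 as well. For none of the 8 did the FPKM of the groups lie apart, while they did for 7.55% of the genes compared. Log2 fold changes (knockout over wild type) were 1.50 for Myh7 (SE 1.41, 95% interval -1.79 to 4.79), 1.31 for Myh6 (SE 1.20, -1.48 to 4.11), 1.12 for Myh7b (SE 1.02, -1.25 to 3.48) and 1.08 for Myh2 (SE 0.97, -1.17 to 3.34). They were 0.71 for Myh3 (SE 0.85, -1.28 to 2.69), 0.37 for Myh8 (SE 0.47, -0.72 to 1.47), 0.32 for Myh1 (SE 0.91, -1.80 to 2.45) and -0.15 for Myh4 (SE 0.41, -1.10 to 0.80). The adjusted p was 0.994 for each by edgeR. Under limma-voom with library quality weights 6 of these directions turned, with Myh7 at -0.24, Myh1 at -0.72, Myh3 at -0.65, Myh6 at -0.10, Myh7b at -0.022 and Myh8 at -0.37, and Myh2 was at 0.25. The upper bounds of 7 members, all but Myh4, exceed 1 log2 unit, so a rise of that size is not shown to be absent. The lower bounds of all members but Myh8 lie more than 1 log2 unit below 0, so neither is a fall of that size.

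The median over the 8 members was 0.89 on the log2 scale, beside 0.0046 over all genes tested. Knockout library 1 was the highest library for 7 of the 8 members and for 29.9% of all genes tested. Without it the log2 fold changes were -0.93 for Myh1, 0.0039 for Myh2, -0.89 for Myh3, 0.17 for Myh4, -0.24 for Myh6, 0.99 for Myh7, 0.38 for Myh7b and -0.28 for Myh8. Without wild-type library 2, the lowest for 5 members, they were -0.19 for Myh1, 0.55 for Myh2, 0.27 for Myh3, 0.73 for Myh6, 0.97 for Myh7, 0.61 for Myh7b and 0.11 for Myh8. Without knockout library 3, the lowest for Myh7 and Myh7b, their values were 2.08 and 1.67.

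**Figure D3:**
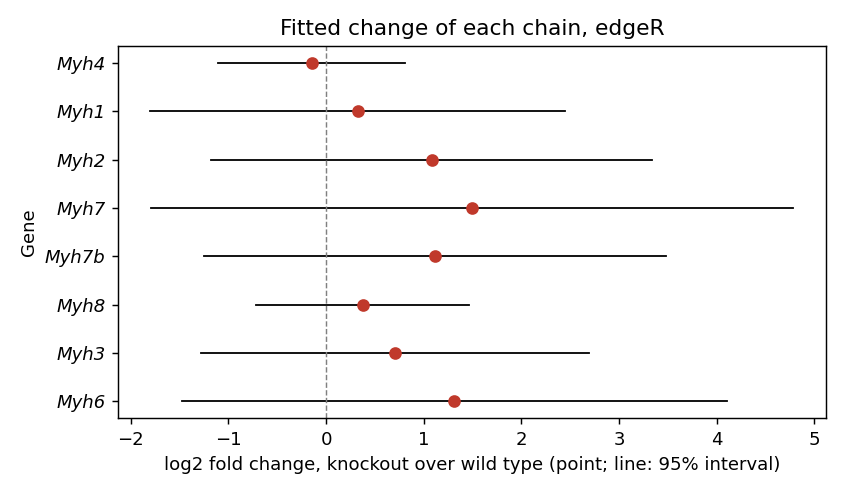
Fitted log2 fold change of each chain, knockout over wild type, from edgeR (points) with its 95% interval (lines). Every interval spans 0, from the narrowest, that of Myh4 (-1.10 to 0.80), to that of Myh7 (-1.79 to 4.79).

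The members were among the most variable genes between libraries of one group. The biological coefficient of variation, edgeR's estimate of the spread left around the group means after counting error, was 113.8% for Myh6, 106.0% for Myh7, 87.4% for Myh7b, 76.6% for Myh2, 73.2% for Myh1, 70.1% for Myh3, 39.8% for Myh8 and 30.9% for Myh4, against a median of 15.6% over all genes. All 8 lay in the 10% of genes with the highest values, and 8.46% of genes lay above Myh4, the least variable member. Without knockout library 1, a setting chosen after seeing the data, the values were 103.9% for Myh7, 99.9% for Myh6, 82.8% for Myh7b, 65.1% for Myh2, 56.8% for Myh1, 43.3% for Myh3, 26.5% for Myh8 and 16.002% for Myh4, against a median of 12.9%. The spread of Myh4 thus rested on that library, since 31.3% of genes then lay above it. Myh7, Myh2 and Myh1 were among the most variable of the abundant genes with all libraries. Myh7 ranked 1 of the 149 genes at least as abundant as itself, Myh2 ranked 1 of 32 and Myh1 ranked 2 of the 28 genes within 1 log2 unit of its own level, behind Myh2. Each of these chains, without knockout library 1, ranked 1 among the genes at least as abundant as itself. The spread is measured within groups, so it does not rest on the contrast between knockout and wild type.

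**Figure D4:**
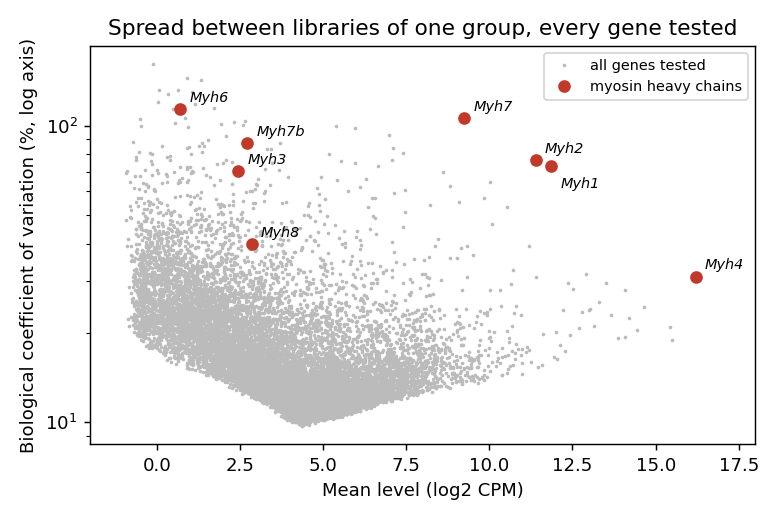
Biological coefficient of variation in percent (log axis) against mean level in log2 CPM for all 12774 genes tested (grey) and the 8 myosin heavy chains (red), from edgeR. Myh7, Myh2 and Myh1 lie far above genes of their own abundance, at 106.0%, 76.6% and 73.2%, and Myh4 is the most abundant gene of all.

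The members did not share 1 pattern over the libraries. Expressed as log2 CPM minus the mean of the 6 libraries, Myh7 was at 2.68, 2.50 and -4.66 in the knockout libraries, against 1.01, -2.61 and 1.08 in the wild-type libraries. Myh2 was at 2.17, 0.53 and -0.65 in the knockout, against 0.63, -3.21 and 0.53 in wild type, and Myh1 at 1.80, -0.38 and -0.77, against 0.99, -2.41 and 0.77 in the same order. Myh4 was at -1.02, 0.28 and 0.35 in the knockout, against -0.04, 0.04 and 0.39 in wild type. In knockout library 2 Myh7 was nearly as high as in knockout library 1, Myh1 was below wild-type libraries 1 and 3, and Myh2 was close to them. In knockout library 3 Myh7 lay much further below its mean than Myh1 and Myh2 did. Knockout library 3 and wild-type library 2 were the lowest pair for 6 of the 8 members, which holds for 12.5% of all genes tested. Myh8 was one of the exceptions: it was at 1.09, -0.71 and -0.01 in the knockout, against 0.36, -0.75 and 0.03 in wild type, with knockout library 3 above knockout library 2. As a description over 6 libraries, Pearson's r of log2 CPM was 0.988 between Myh7 and Myh7b, 0.951 between Myh1 and Myh2, and 0.345 between Myh8 and Myh7. Myh6 had r of 0.909 with Myh1, 0.930 with Myh2, 0.921 with Myh7 and 0.969 with Myh7b, but -0.566 with Myh4. Its r was thus high with the slow chains and with Myh1 and Myh2, and negative with Myh4.

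Genes that resembled each chain were taken as the 3 non-members with the highest Pearson correlation of log2 CPM over the 6 libraries, among 10321 genes with a mean of at least 1 FPKM. With 6 libraries high values are common, the points share libraries and scaling, and knockout library 1 enters every value. Myh7 was most like the slow troponin genes Tnnc1 (r = 0.998), Tnni1 (r = 0.997) and Tnnt1 (r = 0.988), which encode the calcium-binding, inhibitory and tropomyosin-binding subunits of the slow thin filament, and 0.203% of the genes exceeded r = 0.95 with it. Tnnc1 stood at 257.27, 186.24 and 2.14 FPKM in knockout libraries, against 62.71, 6.87 and 64.40 FPKM in the wild-type libraries, so it repeated the wide range of Myh7. Myh1 was most like Adk, adenosine kinase (r = 0.999), Sdhb, the iron-sulphur subunit of succinate dehydrogenase (r = 0.998), and Ndufs8, a complex I subunit (r = 0.997). Sdhb was at 354.42, 195.17 and 180.54 FPKM in knockout muscle, against 265.80, 135.24 and 224.80 FPKM in wild-type muscle, a far narrower range than that of Myh1. Myh2 was most like Tmem106b, a lysosomal membrane protein gene (r = 0.997), Ephx2, soluble epoxide hydrolase (r = 0.996), and Ptcd1, a mitochondrial RNA-binding protein gene (r = 0.995). Myh4 was most like Larp1b (r = 0.997), Cyb5d1 (r = 0.994) and Eml1 (r = 0.992), although likeness says nothing of size. These r use log2 CPM scaled by TMM, with a factor of 1.19 in knockout library 1. In FPKM, Larp1b stayed between 36.56 and 40.00. It was at 37.64 FPKM in knockout library 1, above knockout library 2 (36.79 FPKM), so it lacked the low value of Myh4 there. Cyb5d1 stayed between 9.59 and 10.09 FPKM, while Eml1 was lowest in knockout library 1 (25.89 FPKM). For Myh1, Myh2 and Myh4, 1.65%, 1.96% and 1.37% of the genes exceeded r = 0.95.

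The slow fibre partner genes are a list of thin filament, light chain, calcium handling and other genes of slow fibres. Most were highest in knockout library 1 and lowest in knockout library 3 and wild-type library 2. The same held for Myh1, Myh2, Myh3, Myh6, Myh7 and Myh7b, so it was not particular to the slow chains. As log2 CPM minus the mean of the libraries, the list mean was lowest in wild-type library 2 (-2.03, against -1.59 in knockout library 3). Myh7 was lowest in knockout library 3 (-4.66, against -2.61 in wild-type library 2). Of the 15 slow fibre partner genes 14 had a positive and 1 a negative log2 fold change, with a median of 1.23, and 0 passed edgeR's adjusted threshold (2 reached an unadjusted p of 0.05, as did 3.55% of all genes). Knockout library 1 was the highest library for 14 of the 15 and for 29.9% of all genes tested. Knockout library 3 and wild-type library 2 were the lowest pair for 13 of the 15 and for 12.5% of all genes, and one exception was Myl6b, which was lowest in wild-type library 1. Myl2, the slow regulatory light chain that binds the Myh7 heavy chain, stood at 697.7, 369.6 and 28.45 FPKM in knockout muscle, against 193.8, 14.03 and 146.2 FPKM in wild-type muscle. Of the 4 members with the smallest p, Csrp3, a muscle LIM protein gene, gave a log2 fold change of 1.63 (SE 0.66), Atp2a2, the slow calcium pump, of 1.50 (SE 0.88), Fhl1, a LIM protein gene, of 1.25 (SE 0.68) and Myl6b, a slow-fibre light chain, of 0.67 (SE 0.27). These were 1.03, 0.94, 0.16 and 0.43 without knockout library 1.

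All 15 fast fibre partner genes had a negative log2 fold change, with a median of -0.20, and 0 passed by edgeR (0 at an unadjusted p of 0.05). Knockout library 1 was the lowest library for 14 of the 15, as it was for Myh4 and for 27.9% of all genes tested. Mylk2, the kinase of the fast regulatory light chain, gave a log2 fold change of -0.39 (SE 0.25), Casq1, the fast calcium buffer, of -0.32 (SE 0.27), Atp2a1, the fast calcium pump, of -0.28 (SE 0.29) and Pgam2, a glycolytic enzyme gene, of -0.20 (SE 0.17). The groups lay apart for Mylk2, at 240.87, 327.26 and 329.14 FPKM in knockout libraries, against 330.09, 469.22 and 342.26 FPKM in wild-type libraries. Groups lay apart, in either direction, for 7.55% of all genes. Mylpf, the fast regulatory light chain, measured 7797.7, 11120.3 and 12196.9 FPKM in knockout libraries, against 11416.5, 12099.6 and 13089.5 FPKM in the wild-type libraries. Without knockout library 1 the median of this list was 0.04, and Mylk2, Casq1, Atp2a1 and Pgam2 were at -0.18, -0.08, -0.10 and -0.07.

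**Figure D5:**
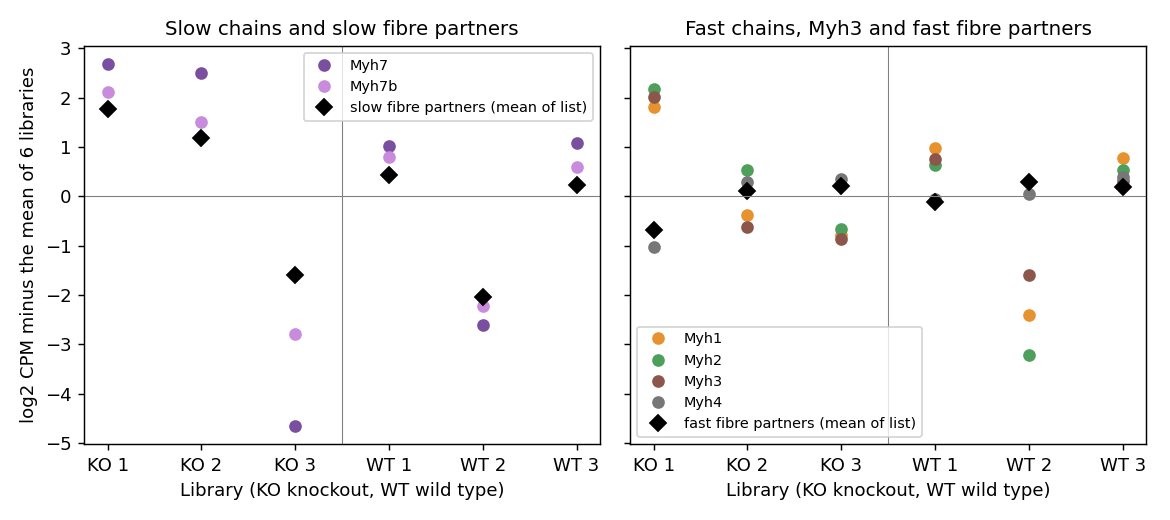
Log2 CPM minus the mean of the 6 libraries for slow chains and the mean of 15 slow fibre partners (left) and for Myh1, Myh2, Myh3, Myh4 and the mean of 15 fast fibre partners (right), by library (KO knockout, WT wild type). The slow partner mean lies at 1.78, 1.18 and -1.59 in the knockout libraries, against 0.44, -2.03 and 0.23 in the wild-type libraries.

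Marker levels of other cell types differed between the same libraries. Adipocyte markers (3 of 4 tested) summed to 17.6, 1.53 and 6.54 FPKM in knockout muscle, against 3.05, 3.05 and 2.15 FPKM in wild-type muscle. Macrophage markers (4 of 4) summed to 15.6, 4.79 and 6.36 FPKM in knockout muscle, against 6.52, 5.29 and 4.80 FPKM in wild-type muscle. Schwann cell markers (4 of 4) summed to 299.3, 47.7 and 84.95 FPKM in knockout muscle, against 196.0, 19.3 and 36.8 FPKM in wild-type muscle. In all 3 lists knockout library 1 was highest. Fibroblast markers (4 of 4) summed to 318.2, 162.8 and 190.9 FPKM in knockout muscle, against 309.1, 130.02 and 256.1 FPKM in wild-type muscle. Endothelial markers (4 of 4) summed to 115.4, 67.2 and 47.15 FPKM in knockout muscle, against 85.2, 47.9 and 68.1 FPKM in wild-type muscle. Tendon markers (4 of 4) summed to 63.8, 34.0 and 25.0 FPKM in knockout muscle, against 56.9, 25.9 and 42.9 FPKM in wild-type muscle. By these sums knockout library 1 was again highest in the 3 lists. Col3a1, Pdgfra and Dcn were also highest there. Col1a1 was at 105.3 FPKM in that library, below wild-type libraries 1 and 3 (149.8 and 147.6 FPKM). Tendon sums were mostly Thbs4. Scx, Tnmd and Mkx were at 5.37, 5.74 and 0.54 FPKM in knockout library 1, below wild-type library 1 (6.52, 8.58 and 0.69 FPKM). Wild-type library 2 had the lowest sums of Schwann cell and fibroblast markers. Knockout library 3 and wild-type library 2 were the lowest pair in the sums of endothelial, tendon and spindle-associated genes. They were also the lowest pair for Myh1, Myh2, Myh3, Myh6, Myh7 and Myh7b. Spindle-associated genes (5 of 5) stayed between 3.72 and 6.66 FPKM in knockout muscle and between 4.36 and 6.73 FPKM in wild-type muscle, and smooth muscle markers (5 of 6, with Des, which skeletal muscle also makes) between 1379 and 1650 FPKM and between 1274 and 1525 FPKM in the same order. The only marker at 0 in all libraries was Myl7. The part of these cells in the myosin values was not tested, and in bulk tissue fewer fibres of a type and less transcript per fibre cannot be told apart. The labels do not give the part of the muscle that was taken.

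Among the other myosin heavy chain genes, Myh13, the extraocular chain of the same chromosome 11 cluster, was at trace level, with 1.10, 0.18 and 0.02 FPKM in knockout libraries against 0.41, 0.01 and 0.26 FPKM in the wild-type libraries. Myh15 was at 0 in all 6. The non-muscle chains Myh9, Myh10 and Myh14 and the smooth muscle chain Myh11 gave log2 fold changes of -0.13 (SE 0.16), 0.95 (SE 0.55), 0.18 (SE 0.12) and 0.20 (SE 0.25). Myh10 was at 15.76, 4.18 and 2.69 FPKM in knockout muscle, against 4.70, 2.04 and 3.73 FPKM in wild-type muscle, so knockout library 1 again stood highest, and without it the log2 fold change was 0.03. Without it that of Myh11 was -0.09. Of the 5 tested, 0 passed by edgeR.

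Of 10 thick filament and M-band genes 5 had a positive and 5 a negative log2 fold change (median -0.02), and 0 passed by edgeR, while 1 of 10 reached an unadjusted p of 0.05, as did 3.55% of all genes. That gene was Mybph, a myosin-binding protein of the thick filament. It was at 47.31, 70.81 and 155.96 FPKM in knockout libraries, against 331.54, 201.42 and 240.26 FPKM in the wild-type libraries, with all 3 knockout libraries below all 3 wild-type libraries; groups lay apart, in either direction, for 7.55% of all genes. Its log2 fold change was -1.49 (SE 0.47, edgeR adjusted p = 0.994). It did not follow the slow or the fast chains over the libraries, since it was lowest in knockout libraries 1 and 2. Obsl1 gave a log2 fold change of -0.36 (SE 0.16), Myom3, an M-band protein gene of slow and intermediate fibres, of 1.21 (SE 0.76) and Mybpc1, slow myosin-binding protein C, of 0.72 (SE 0.55). Mybph was at -1.13, Obsl1 at -0.38, Myom3 at 0.46 and Mybpc1 at -0.05 without knockout library 1.

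Genes for myosin folding showed 0 of 6 past edgeR's threshold, 3 with a positive and 3 with a negative log2 fold change (median 0.07; 0 at an unadjusted p of 0.05). Hsp90aa1, the inducible Hsp90 chaperone, stood at 30.85, 9.91 and 10.48 FPKM in knockout muscle, against 11.27, 9.22 and 9.66 FPKM in wild-type muscle. Only knockout library 1 lay outside the wild-type range, and the log2 fold change was 0.63 (SE 0.34) with it and 0.07 without it. Cryab, a small heat shock protein, had one of 0.53 (SE 0.46; -0.22 without that library), Hsp90ab1 of 0.16 (SE 0.15) and Unc45a, a myosin chaperone, of -0.04 (SE 0.13). Among 20 regulators of myosin gene transcription 0 passed by edgeR, 11 had a positive and 9 a negative log2 fold change (median 0.13), and 1 of 20 reached an unadjusted p of 0.05, a share near the 3.55% of all genes. That was Tead4, a TEA-domain factor, at 4.20, 3.76 and 2.67 FPKM in knockout muscle, against 2.70, 2.11 and 2.44 FPKM in wild-type muscle (log2 fold change 0.48, SE 0.17); its groups overlapped. The myocyte enhancer factor Mef2c was at 185.1, 157.8 and 161.4 FPKM in knockout muscle, against 144.2, 118.7 and 133.2 FPKM in wild-type muscle (log2 fold change 0.28, SE 0.13, edgeR adjusted p = 0.994). Mef2a stood at 31.37, 31.22 and 30.47 FPKM in knockout muscle, against 27.76, 24.97 and 26.59 FPKM in wild-type muscle (log2 fold change 0.17, SE 0.12). The groups lay apart for Mef2c and Mef2a, as they did for 7.55% of all genes. Tead1 gave a log2 fold change of 0.26 (SE 0.14).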

How the data were processed

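Per the file headers, the deposited tables hold read counts and expression levels for 19458 genes. The deposited read counts are expected counts made by the authors, with decimals: 26.2% to 27.5% of a library's values are not whole. They were taken as counts without normalization, which the decimals do not show. The expression levels were taken as FPKM, which the authors scaled to transcript length and library total. The submitters' processing notes list HISAT2 2.0.4, Bowtie2 2.2.5, RSEM 1.2.12 and GRCm38; the tools' roles, the annotation and the strand setting were not given in the sources used here.

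Expected counts were rounded, filtered with filterByExpr (minimum count 10, 12774 genes left), scaled by TMM and compared by the quasi-likelihood test of edgeR 4.0.16 under R 4.3.3 (two-sided; Benjamini-Hochberg over every gene kept; threshold 0.05). A standard error is the size of the log2 fold change over the root of F, and 95% intervals follow from it. Levels and shares use FPKM as deposited, and log2 CPM has a prior count of 2. Shares, ratios, the sum and the sum of the low members were tested with exact permutation tests over libraries. Positions and transcripts come from GENCODE M21, promoters from RefSeq. The fit was tested on simulated data. The depth, at least 16212341 expected counts per library, makes counting error small for the adult chains. It is large for Myh6, Myh7b and Myh3, whose lowest counts in a library were 0, 7 and 21.

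The members and lists were chosen with earlier results of these data known. The text names all members, Tmem182, up to 4 genes with the smallest p of each list and 3 genes most like each adult chain; Myl2, Mylpf, the markers, Myh13 and Myh15 were named besides. The list of non-coding genes at the myosin loci had 0 members in the tables. The alternatives were omission of each library, a replicate block, no low-count filter, size factors or the Wald test of DESeq2 1.42.0, limma 3.58.1 on log2(FPKM + 1) or through voom with quality weights, a threshold of 0.10, shares of read counts and shares of the 4 adult chains. Leaving out knockout library 1 together with wild-type library 2, and leaving out knockout library 1 for the spread, were chosen after seeing the data. Libraries of a group differed beyond counting noise (chi-square over degrees of freedom 12.9 or more), so none were merged.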

Additional observations from a re-analysis of the deposited data

How the results depend on the processing

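The members called stayed at 0 under every alternative run. The number of genes called was 1, 6 with the DESeq2 Wald test and 0 to 1 with each library left out; leaving out knockout library 2 gave 0, as did leaving out wild-type library 3. Under limma-voom with quality weights the log2 fold changes of Myh1, Myh3, Myh6, Myh7, Myh7b and Myh8 turned to -0.72, -0.65, -0.10, -0.24, -0.022 and -0.37; the cause was not tested. With each library left out in turn they ran from -0.93 to 0.77 for Myh1, from -0.89 to 1.19 for Myh3, from -0.37 to 0.17 for Myh4, from -0.24 to 1.94 for Myh6 and from -0.28 to 0.70 for Myh8, while Myh2 (0.0039 to 1.52), Myh7 (0.97 to 2.08) and Myh7b (0.38 to 1.67) kept their direction. The share differences, knockout minus wild type in percentage points, ran from -13.7 to 1.78 for Myh4, -1.97 to 5.63 for Myh1, -0.12 to 6.33 for Myh2, -0.0024 to 0.0109 for Myh3, -0.00020 to 0.0044 for Myh6, -0.0019 to 0.0088 for Myh8 and 0.316 to 1.65 for Myh7. The summed level ran from -0.14 to 0.12 on the log2 scale. Ratios to Myh4 ran from -1.10 to 3.26 for Myh7, -0.54 to 1.43 for Myh1, -0.76 to 1.39 for Myh3, -0.73 to 2.58 for Myh7b, -0.44 to 1.13 for Myh8 and 0.40 to 2.53 for Myh2. Without both knockout library 1 and wild-type library 2, chosen after seeing the data, the Myh4 share difference was 4.40 and that of Myh7 0.160. Shares of read counts or of the 4 adult chains kept every direction. Knockout and wild-type libraries of one number correlated in their deviations at 0.589, 0.222 and -0.207, so the numbers were not taken as pairs; with a replicate block 1 gene and 0 members were called, and the Myh4 and Myh7 share differences of -7.95 and 0.98 had exact sign-flip p = 0.5 each. With each library left out, list medians ran from 0.81 to 1.70 for slow and from -0.36 to 0.04 for fast partners; without knockout library 1 those of thick filament genes and of other myosins turned to 0.011 and -0.09. With 3 libraries a group and this spread, the intervals of the fitted changes, and not depth, limit what can be seen of the adult chains.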
